A study of Mus musculus with 64 samples.

Results

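The colony-stimulating factors and their receptors were followed across 64 RNA-seq libraries of mouse bone marrow-derived macrophages (BMMs). The 8 genes were chosen by name, 3 ligands (Csf1, Csf2 and Csf3) and 5 receptor chains (Csf1r, Csf2ra, Csf2rb, Csf2rb2 and Csf3r), of 55487 annotated genes. All 8 were among the 14537 genes that passed the filter on low counts, although Csf2 and Csf3 passed through the activated groups.

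Colony-stimulating factors are secreted proteins that keep myeloid cells alive and drive their division and maturation. Csf1 encodes M-CSF, the growth factor of macrophages, which binds the receptor tyrosine kinase encoded by Csf1r. Csf2 encodes GM-CSF, which is recognised by an alpha chain (Csf2ra) paired with the common beta chain (Csf2rb). In the mouse, Csf2rb2 encodes a beta chain that serves IL-3 only. Csf3 encodes G-CSF, the growth factor of neutrophils, and Csf3r its receptor. Macrophages are known to release all 3 ligands after contact with bacterial products.

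BMMs came from female C57BL/6JRj wild-type mice (Ahr+/+) and from backcrossed mice lacking the aryl hydrocarbon receptor (Ahr-/-), and were matured in all groups with L929-conditioned medium, which itself supplies M-CSF. The cells were exposed to 1 µM benzo[a]pyrene (BaP), 10 µM indole-3-carbinol (I3C) or 0.01% DMSO, the vehicle, over 6 h. Heat-killed Salmonella Enteritidis (hk S.E.) at 10000000 per ml was then present for 3 h or 20 h, and an unactivated DMSO culture accompanied each genotype and time. This gave 16 groups of 4 libraries. The study's methods name 4 mice of each genotype as the source of the marrow, so libraries of different groups can share a mouse. As the labels do not tie a replicate number to a mouse, the fit takes the libraries as independent. The p-values below therefore measure the spread between libraries. Whether this is also the spread between mice cannot be told from the labels, and a mouse shared between groups is not taken into account.

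Total counts per library ranged from 12152496 to 50644601 apart from 1 library with 233047331, an unactivated Ahr+/+ culture at 20 h, and the median was 24499165. All 6 macrophage markers were detected, at a summed level of 1.59e+04 to 3.11e+04 CPM (counts scaled to a common library total) in the 64 libraries. The T cell receptor components Cd3e, Cd3d and Cd3g, markers of another source of GM-CSF, did not exceed 0.127, 0.165 and 0.0974 CPM in any library, whereas Lck of the same list of 5 reached 8.402 CPM. Ahr transcripts were still counted in the Ahr-/- libraries (21.3 to 28.1 CPM after 20 h of activation, against 11.9 to 14.9 in Ahr+/+), so that the gene count does not check the deletion. Ahrr, a target gene of the receptor, stood at 5.63, 18.7 and 16.02 CPM in Ahr+/+ BMMs with DMSO, BaP and I3C at 20 h, and at 0.738, 0.911 and 0.671 CPM in Ahr-/- BMMs.

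Short-lived cytokine mRNAs are known to be recognised by AU-rich sequences after the stop codon. For the 3 ligands the stretch of 30 bases densest in the pentamer ATTTA is shown here from the GRCm38 genome, 5′ to 3′ on the strand of the gene, with each ATTTA in capitals, to show how far the ligands differ in it.
Csf2 (chr11:54247329-54247358, minus strand): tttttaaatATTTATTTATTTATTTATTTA
Csf3 (chr11:98702984-98703013, plus strand): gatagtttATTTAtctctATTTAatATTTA
Csf1 (chr3:107741109-107741138, minus strand): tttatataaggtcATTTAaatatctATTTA
The Csf2 mRNA holds 9 ATTTA in 317 bases after its stop codon, and 4 overlapping copies of the nonamer TTATTTATT. Among 15022 genes with at least as many bases after the stop, 0.00666% held as many ATTTA and 1.54% held the nonamer in their first 317 bases after it. Later bases of these genes were not searched, and the shares for the other members follow the same rule. Csf3 held 6 ATTTA in 669 bases (reached by 1.35% of 11388 genes) and 0 nonamers. Counts as high as those of Csf1 and Csf1r were common, with Csf1 holding 4 in 2111 bases (50.4% of 4187 genes), and Csf1r 3 in 1669 bases (52.8% of 5651 genes). Csf2ra, Csf2rb, Csf2rb2 and Csf3r held 0. The pentamer was searched on the mRNA strand only, and a match is a description of the sequence, not of its use.

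The fold changes with hk S.E. were larger for Csf1 than for any receptor chain, and Csf2 and Csf3 were detected almost only with it. Of the 32 comparisons of the 8 genes with hk S.E. against unactivated DMSO cultures (2 genotypes, 2 times), 28 passed an adjusted p of 0.01, 24 of them higher and 4 lower, in the quasi-likelihood F-test of edgeR (p-values adjusted by Benjamini-Hochberg over all genes). By comparison, 6 of 8 were called in Ahr+/+ BMMs at 3 h, where 56.6% of all tested genes were, 8 of 8 at 20 h (58.6% of all), 6 of 8 in Ahr-/- BMMs at 3 h (57.3%) and 8 of 8 at 20 h (54.3%). Csf2 and Csf3 passed the filter through the activated groups only, so that their calls follow largely from the filter. They make up 8 of the 28, which leaves 20 of 24 for the other 6 genes. As activation changed most expressed genes, these counts stand against a high background. The median log2 fold change over all tested genes was -0.105, -0.001, -0.076 and 0.022 in the same order. Some markers of other cell types moved with activation as well. Summed neutrophil markers went from 13.6 to 35.2 CPM without to 88.7 to 204 CPM with hk S.E. in Ahr+/+ BMMs at 3 h. In group means S100a8 rose from 9.30 to 53.3, S100a9 from 11.0 to 76.8, Ltf from 4.36 to 14.2 and Camp from 0.419 to 4.19 CPM. Mpo (0 and 0.0456), Elane (0.0556 and 0.0315) and Ly6g (0.061 and 0.11 CPM) stayed low. Fibroblast markers went from 0.552 to 0.779 to 7.07 to 12.3 CPM, largely Pdgfrb (0.354 and 9.28 CPM). Col1a1 (0.15 and 0.05) and Col1a2 (0.139 and 0.0854) were lower, Col3a1 (0.013 and 0.111) and Dcn (0.013 and 0.0513 CPM) higher. Endothelial markers went from 3.14 to 4.40 to 31.3 to 59.4 CPM in Ahr+/+ BMMs at 20 h, with Tek at 0 in the activated libraries, and T cell markers from 0.0493 to 0.552 to 3.67 to 8.14 CPM at 3 h, with Cd3e and Cd3g at 0 in the activated libraries. The endothelial rise was almost only Kdr (mean 3.52 and 47.7 CPM), and the T cell rise almost only Lck (0.165 and 5.46 CPM). The part of these lists in the changes with activation was not tested.

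Csf1 was present before activation and was the ligand with the highest level. In unactivated Ahr+/+ BMMs at 3 h it stood at 19.1, 16.1, 23.3 and 25.5 CPM in replicates 1 to 4, and after 3 h of hk S.E. at 489, 428, 453 and 435 CPM. The corresponding Ahr-/- libraries held 11.5, 13.5, 20.7 and 20.4 CPM and then 511, 471, 508 and 512 CPM. The groups were far apart, with a log2 fold change of 4.43 (SE 0.20, 21.5-fold, adjusted p = 4.16e-27) in Ahr+/+ and 4.92 (SE 0.20, 30.4-fold, adjusted p = 9.99e-29) in Ahr-/- BMMs.

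By 20 h the Csf1 level had come down in each condition. Unactivated Ahr+/+ libraries held 9.10, 7.01, 10.0 and 10.4 CPM and activated ones 101, 79.9, 53.8 and 96.8 CPM. In Ahr-/- BMMs the values were 5.44, 4.02, 6.27 and 6.13 CPM without and 81.6, 56.7, 68.2 and 87.3 CPM with hk S.E. Activated and unactivated libraries still did not overlap, with log2 fold changes of 3.17 (SE 0.19, adjusted p = 1.11e-21) and 3.72 (SE 0.20, adjusted p = 7.7e-24). The response was smaller at 20 h than at 3 h by 1.25 on the log2 scale in Ahr+/+ (adjusted p = 1.91e-05 for the interaction) and by 1.20 in Ahr-/- BMMs (adjusted p = 5.63e-05). Among Ahr+/+ libraries at 20 h, replicate 3 was the lowest of the 4 with DMSO, BaP and I3C alike (53.8, 47.0 and 43.9 CPM).

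Upstream of Csf1, the promoter window of RefSeq annotation on GRCm38.p6 held a match to GGGANTTTC, a pattern bound by NF-kB, and is shown for that reason. The 250 bases before the start site (chr3:107760470-107760719, minus strand) are given 5′ to 3′ with the match in capitals. It lies on the opposite strand, 153 to 145 bases before the start.
Csf1 promoter: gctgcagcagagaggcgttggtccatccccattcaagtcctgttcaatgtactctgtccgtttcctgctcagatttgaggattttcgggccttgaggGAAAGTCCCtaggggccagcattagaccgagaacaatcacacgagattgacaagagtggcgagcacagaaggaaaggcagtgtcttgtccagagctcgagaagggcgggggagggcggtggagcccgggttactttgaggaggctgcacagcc
Of 32851 promoter windows of the same 300 bases, 1.11% held this pattern on either strand. Also searched on both strands were GCGTG (the core of the aryl hydrocarbon receptor element, 32.4% of windows), TGANTCA (AP-1, 7.81%), GAGGAAGT (PU.1, 3.2%) and GATTCCAC (the end of the cytokine element CK-1, 0.645%). Of the 5 members with a window in the table (Csf1, Csf2, Csf2ra, Csf2rb2 and Csf3r), Csf1 held the match above, Csf2rb2 held GAGGAAGT on the opposite strand from base 27 to 34 after its start, and the others held none of these letters. The window of Csf2 (chr11:54249850-54250149) lies upstream of the gene start used for counting (chr11:54247271-54249667). The bases between them were not searched, so the lack of a match says nothing about the sequence next to that start.

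Csf2 was not detected without hk S.E. All 16 unactivated libraries had 0 counts, and 3 counts over each group of 4 set a floor of 0.00779 to 0.0295 CPM. After 3 h of hk S.E. with DMSO, Ahr+/+ libraries held 0.914, 0.453, 0.346 and 0.711 CPM (5 to 13 counts) and Ahr-/- libraries 2.74, 3.98, 1.59 and 1.73 CPM. After 20 h the values were 1.39, 1.08, 1.1 and 1.90 CPM in Ahr+/+ and 20.3, 16.5, 5.19 and 6.16 CPM in Ahr-/- BMMs. Every activated library was above every unactivated one. Against the floor, Csf2 was at least 20.6-fold higher with hk S.E. at 3 h and at least 176-fold at 20 h in Ahr+/+, and at least 94.6-fold and 580-fold in Ahr-/- BMMs. As Csf2 entered the test through activated libraries alone, its calls for activation follow largely from the filter and no p is given here. The Ahr+/+ call at 3 h rests on 37 counts. It was lost with the number series of the library identifiers as a covariate.

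Csf3 behaved likewise at the level of detection. It had 0 counts in 15 unactivated libraries and 1 count in the remaining library, Ahr+/+ replicate 2 at 20 h. At 3 h of activation the DMSO libraries held 3.09, 2.60, 1.87 and 2.39 CPM in Ahr+/+ and 2.24, 2.79, 1.06 and 1.53 CPM in Ahr-/- BMMs. At 20 h they held 1.21, 1.05, 0.943 and 1.00 CPM in Ahr+/+ and 6.62, 10.6, 3.13 and 4.73 CPM in Ahr-/- BMMs. The ranges of the genotypes overlapped at 3 h and were apart at 20 h. The increase over unactivated cultures was at least 84.4-fold (Ahr+/+, 3 h), 71.9-fold (Ahr-/-, 3 h) and 302-fold (Ahr-/-, 20 h), and a ratio of 398 with a 95% counting interval of 70.2 to 1.58e+04 in Ahr+/+ BMMs at 20 h, where a single count stood on the other side. Intervals and floors cover counting error only.

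**Figure D1:**
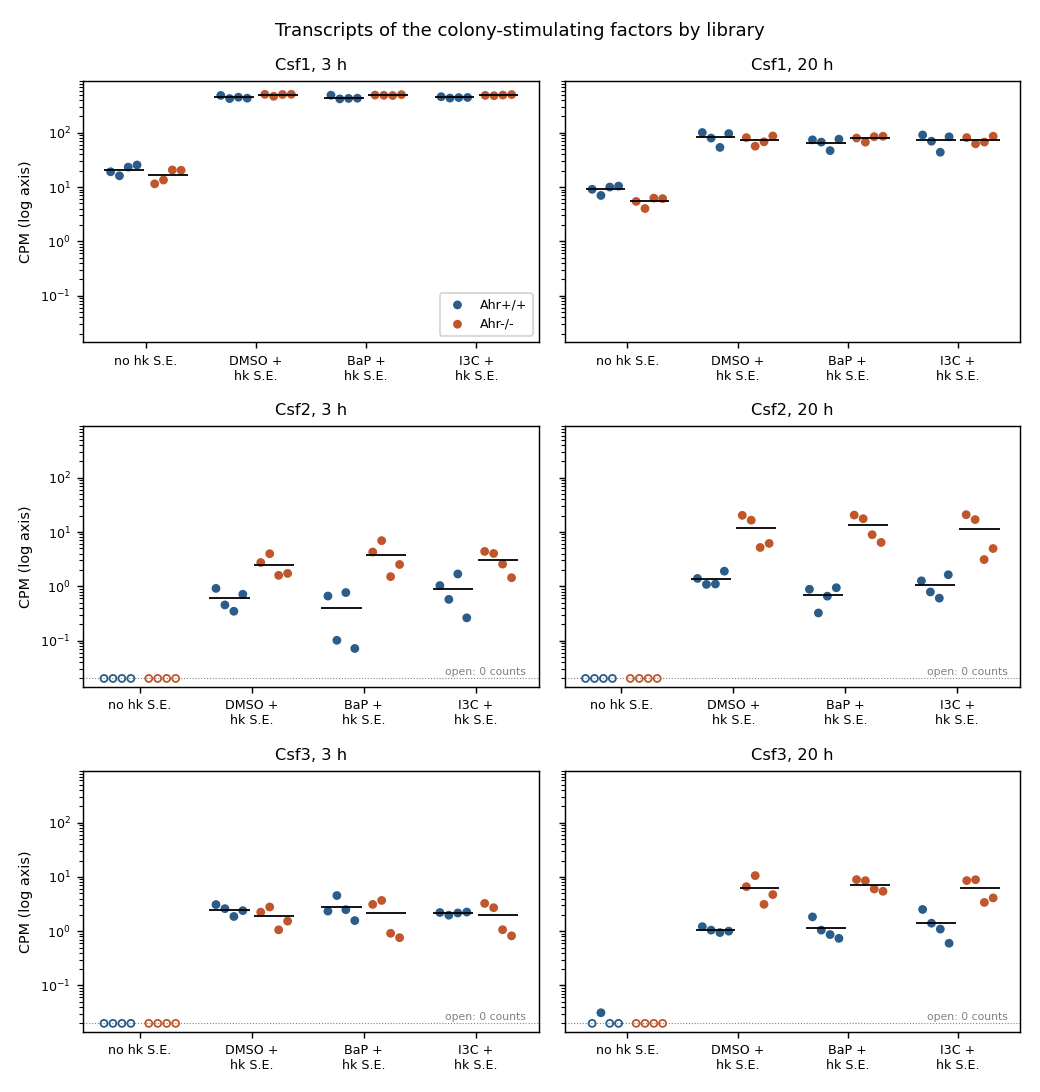
Levels of Csf1, Csf2 and Csf3 in CPM (log axis) in each of the 64 libraries, at 3 h and 20 h, by treatment and genotype, with points for libraries and lines for group means; open points at the bottom are libraries with 0 counts. Csf1 rises from 11.5 to 25.5 CPM to over 400 CPM at 3 h, while Csf2 and Csf3 appear with hk S.E. only, apart from 1 count of Csf3.

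Of all members, Csf1r had the highest level per length. In Ahr+/+ BMMs before activation at 3 h its mean was 310 ± 21.8 RPKM (reads scaled by library total and exon length, SD, n = 4), ahead of Csf2rb2 with 72.6 ± 3.69, Csf2rb with 44.6 ± 2.40, Csf2ra with 38.3 ± 7.58, Csf3r with 14.4 ± 0.787 and Csf1 with 3.98 ± 0.796. After 3 h of hk S.E. Csf1r stood at 252 ± 16.1 RPKM and Csf1 had reached 85.4 ± 5.16, next to Csf2rb2 at 94.2 ± 2.74, while Csf3 and Csf2 had means of 1.76 and 0.757 RPKM. In activated Ahr-/- BMMs at 20 h, Csf2 with 15.04 ± 9.39 RPKM and Csf1 with 13.9 ± 2.60 did not differ beyond their spread.

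Over the 16 groups, the means of Csf1 ran from 445 to 501 CPM in the 6 activated groups at 3 h, from 66.2 to 82.9 CPM in the 6 activated groups at 20 h, and then through unactivated Ahr+/+ (21.0) and Ahr-/- BMMs (16.5) at 3 h to those at 20 h (9.14 and 5.46). Neighbours in this order overlapped in their libraries except after ranks 6, 12, 14 and 15. For Csf2 the Ahr-/- groups at 20 h led (11.5 to 13.4 CPM), followed by the Ahr-/- groups at 3 h (2.51 to 3.81) and the Ahr+/+ groups (0.400 to 1.37), and the only gap between neighbours was that after rank 12, to the unactivated groups. Csf3 likewise had a single gap after rank 12. All neighbours overlapped for Csf1r and Csf2ra, whereas gaps followed ranks 12 and 15 for Csf2rb, rank 8 for Csf2rb2 and rank 6 for Csf3r, which set the activated 20 h groups apart.

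Csf1r, the receptor for M-CSF, was lower in activated than in unactivated BMMs. Ahr+/+ libraries held 1628, 1832, 1929 and 1779 CPM without and 1337, 1530, 1525 and 1419 CPM with hk S.E. at 3 h. At 20 h they held 2119, 2593, 2120 and 2308 CPM without and 1406, 1580, 1618 and 1400 CPM with hk S.E. No activated library reached an unactivated one of its genotype and time, and the same held in Ahr-/- BMMs, where the means fell from 2031 to 1674 CPM at 3 h and from 2204 to 1564 CPM at 20 h. Csf1r fell by 0.61 at 20 h in Ahr+/+ (SE 0.09, adjusted p = 4.92e-08) and by 0.49 in Ahr-/- BMMs (SE 0.09, adjusted p = 3.87e-06) on the log2 scale. At 3 h the values were -0.30 (SE 0.09, adjusted p = 0.00288) and -0.28 (SE 0.09, adjusted p = 0.00577), and the difference between the times, -0.30 and -0.22, was not called (adjusted p = 0.0383 and 0.152). These 3 h calls were lost with another scaling (DESeq2's size factors in edgeR, -0.24 with adjusted p = 0.0164 and -0.22 with adjusted p = 0.0322). They were also lost without any 1 of 4 libraries in Ahr+/+ (DMSO with hk S.E. replicate 1, 3 or 4 or unactivated replicate 3, adjusted p = 0.0103 to 0.0448) and of 5 in Ahr-/- BMMs (any DMSO replicate with hk S.E. or unactivated replicate 2, 0.0156 to 0.0648).

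The receptor for G-CSF rose more at 20 h than at 3 h. Csf3r stood at 50.5, 54.6, 48.4 and 53.7 CPM in unactivated and 60.6, 68.6, 52.4 and 66.5 CPM in activated Ahr+/+ BMMs at 3 h. At 20 h the values were 67.6, 77.0, 60.6 and 67.1 CPM without and 154, 172, 163 and 144 CPM with hk S.E. The groups overlapped at 3 h and were far apart at 20 h. In Ahr-/- BMMs the activated libraries at 20 h held 178, 190, 151 and 149 CPM against 80.6, 109, 69.9 and 80.8 CPM. The log2 fold change at 20 h was 1.21 in Ahr+/+ (SE 0.18, adjusted p = 2.7e-08) and 0.97 in Ahr-/- BMMs (SE 0.18, adjusted p = 3.12e-06), whereas the 3 h values of 0.26 and 0.10 (adjusted p = 0.201 and 0.659) did not pass. The Ahr+/+ value at 3 h was called with the replicate number as a block within genotype and time (0.25, adjusted p = 0.00299). It was also called when the compared groups were fitted alone (0.34, adjusted p = 0.0031). The Ahr-/- value at 3 h was called under no alternative. The 20 h response exceeded the 3 h response by 0.95 in Ahr+/+ (adjusted p = 0.000915) and by 0.88 in Ahr-/- BMMs (adjusted p = 0.0022). Without unactivated Ahr-/- replicate 2 at 3 h the latter difference was 0.72 and was no longer called (adjusted p = 0.0131).

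With all libraries in the fit, Csf2ra, the GM-CSF alpha chain, was called at 20 h only. Ahr+/+ libraries held 129, 125, 85.3 and 95.2 CPM without and 169, 176, 163 and 161 CPM with hk S.E. at 20 h, and Ahr-/- libraries 95.1, 113, 77.7 and 76.6 CPM and then 176, 207, 126 and 142 CPM. Activated libraries lay above unactivated ones in both genotypes, by 0.62 (SE 0.20, adjusted p = 0.00535) and 0.85 (SE 0.20, adjusted p = 0.000234) on the log2 scale. At 3 h the differences of 0.09 and 0.32 did not pass (adjusted p = 0.716 and 0.164), and the difference between the times was 0.53 in each genotype (adjusted p = 0.104 and 0.109). Unactivated Ahr-/- libraries at 3 h spread widely, with 63.7, 173, 110 and 102 CPM of Csf2ra. Without replicate 2 of these the 3 h difference in Ahr-/- BMMs was called (0.60, adjusted p = 0.00813 with edgeR). In Ahr+/+ BMMs the 20 h call did not hold with a minimum count of 50 (adjusted p = 0.0107), nor with the number series of the library identifiers as a covariate (0.0221), nor without any 1 of 4 libraries (DMSO with hk S.E. replicate 1 or 2 or unactivated replicate 3 or 4, adjusted p = 0.011 to 0.0302).

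The beta chains rose at both times, Csf2rb more than Csf2rb2. Csf2rb, the chain that signals for GM-CSF, increased by 0.62 and 0.86 in Ahr+/+ and by 0.64 and 1.32 in Ahr-/- BMMs at 3 h and 20 h (log2, SE 0.10, largest adjusted p = 2.64e-07). At 20 h the unactivated Ahr-/- libraries held 257, 249, 243 and 243 CPM and the activated ones 685, 694, 500 and 592 CPM. Those of Ahr+/+ held 285, 313, 283 and 284 CPM and then 533, 514, 560 and 513 CPM. All activated libraries were above all unactivated ones, and replicates 1 and 2 were the higher pair among activated Ahr-/- libraries. Between genotypes the 20 h response differed by 0.46 (SE 0.14), with an adjusted p = 0.0291 above the threshold. In Ahr-/- BMMs the response was larger at 20 h than at 3 h by 0.68 (SE 0.14, adjusted p = 4.65e-05), while the corresponding 0.24 in Ahr+/+ BMMs was not called (adjusted p = 0.137).

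Csf2rb2, the IL-3 beta chain, increased by 0.38 and 0.26 in Ahr+/+ and by 0.30 and 0.35 in Ahr-/- BMMs at 3 h and 20 h (log2, SE 0.08, adjusted p = 2.11e-05, 0.0023, 0.000483 and 6.28e-05). Ahr+/+ libraries at 20 h held 329, 365, 317 and 296 CPM without and 427, 407, 385 and 347 CPM with hk S.E., so that 1 unactivated library reached into the activated range. The other 3 comparisons had no overlap. The Ahr+/+ call at 20 h was lost without DMSO replicate 1 with hk S.E. (0.22, adjusted p = 0.018) or unactivated replicate 4 (0.22, adjusted p = 0.0186), and with a minimum count of 50 (adjusted p = 0.0113).

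**Figure D2:**
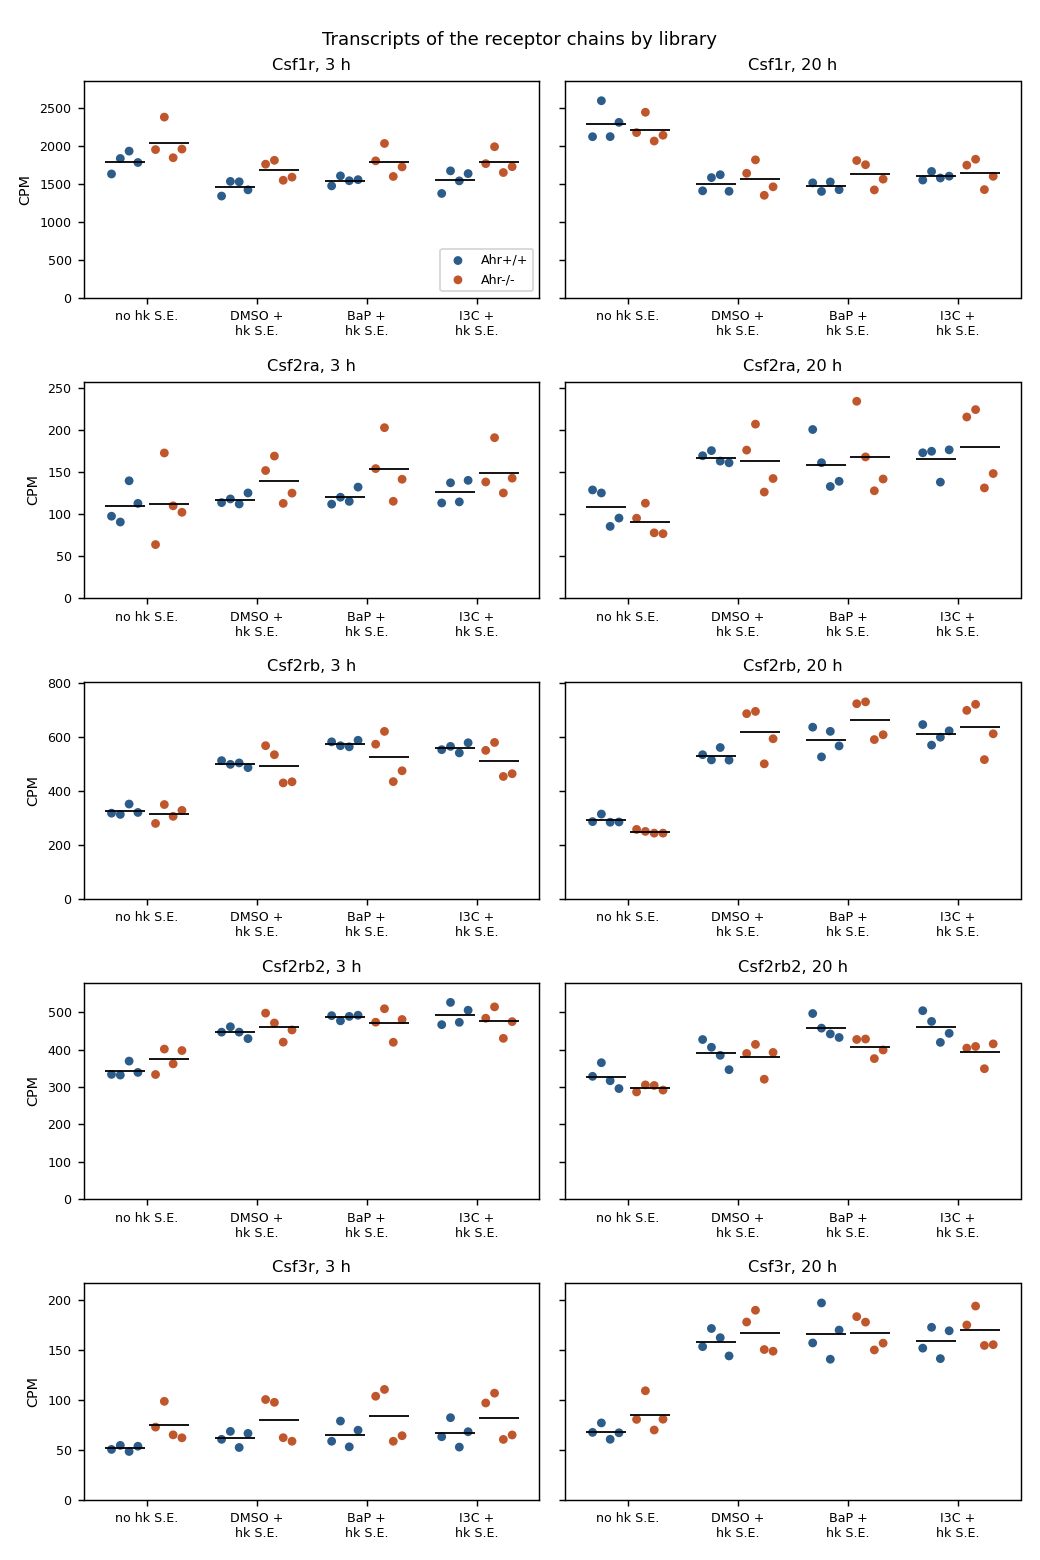
Levels of the 5 receptor chains in CPM (linear axes from 0) in each library, at 3 h and 20 h, by treatment and genotype, with points for libraries and lines for group means. Csf3r separates by activation at 20 h (144 to 190 CPM with hk S.E. and DMSO against 60.6 to 109 without), and Csf1r is lower with hk S.E. at both times.

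**Figure D3:**
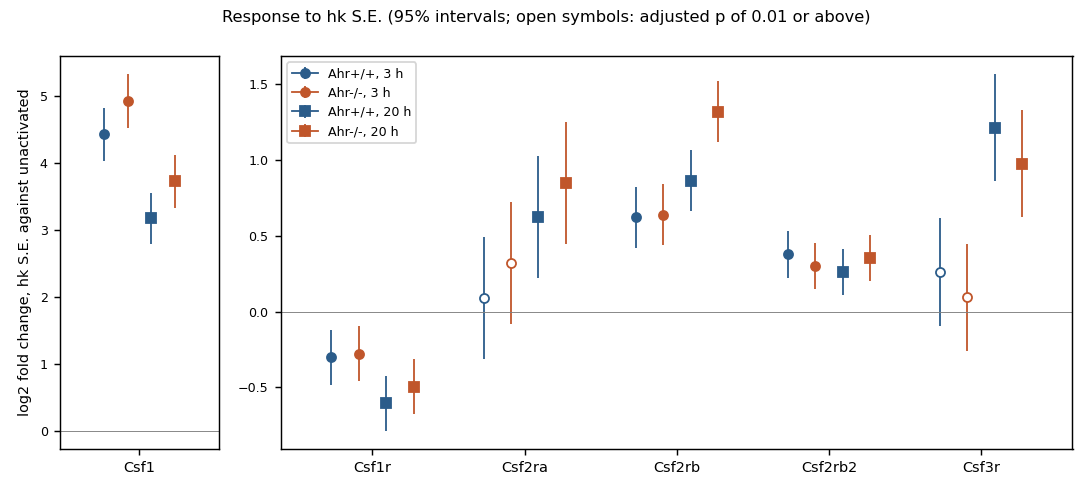
Log2 fold change of hk S.E.-activated against unactivated DMSO cultures (y axis, a separate scale for Csf1) for Csf1 and the 5 receptor chains, by genotype and time, with 95% intervals; open symbols have an adjusted p of 0.01 or above. Among the receptors the values run from -0.61 for Csf1r to 1.32 for Csf2rb, below every value of Csf1. Csf2 and Csf3, at or near 0 counts without hk S.E., are not drawn.

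Csf2rb and Csf2rb2 lie next to each other on chromosome 15 and are close copies, which bears on how reads are assigned to them. Their coding sequences of 2691 and 2637 bases shared 95.2% identity over 2631 aligned bases, with 126 differences. Of all stretches of 100 bases, 11% of those in the Csf2rb coding sequence and 6.96% of those in its whole mRNA also occurred in Csf2rb2. The ungapped stretch of 100 bases in which they differ most is shown in the coding direction (GRCm38), with the 17 differing bases in capitals, because reads from it can be told apart.
Csf2rb (coding bases 314 to 413, chr15:78338903-78340456, plus strand, across an intron): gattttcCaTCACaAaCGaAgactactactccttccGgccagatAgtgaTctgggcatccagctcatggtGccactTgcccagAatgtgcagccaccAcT
Csf2rb2 (coding bases 317 to 416, chr15:78292853-78294428, minus strand, across an intron): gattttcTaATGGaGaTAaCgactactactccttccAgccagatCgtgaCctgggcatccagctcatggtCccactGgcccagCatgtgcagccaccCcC
When the counts of both were added up, the sum rose by 0.50 and 0.58 in Ahr+/+ and by 0.47 and 0.87 in Ahr-/- BMMs at 3 h and 20 h on the log2 scale (largest adjusted p = 3.27e-06 with edgeR). For the sum, the larger response at 20 h than at 3 h in Ahr-/- BMMs was 0.41 (adjusted p = 0.00333).

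Relative to Csf2rb2, Csf2rb rose with activation. The ratio of Csf2rb to Csf2rb2 per library was 0.948, 0.939, 0.948 and 0.941 in unactivated and 1.14, 1.08, 1.12 and 1.13 in activated Ahr+/+ BMMs at 3 h. At 20 h it was 0.868, 0.858, 0.893 and 0.959 without and 1.25, 1.26, 1.45 and 1.48 with hk S.E. in Ahr+/+, and 0.893, 0.814, 0.797 and 0.831 and then 1.76, 1.67, 1.56 and 1.51 in Ahr-/- BMMs. In these ratios of CPM, which are not scaled for length, no unactivated library reached an activated one of its genotype and time. Per length, Csf2rb stayed below Csf2rb2 in activated Ahr+/+ BMMs (68.6 against 94.2 RPKM at 3 h, 72.9 against 82.6 at 20 h), and the means were 84.9 and 80.1 RPKM in activated Ahr-/- BMMs at 20 h. In each of the 4 comparisons of activation the groups did not overlap, which gave p = 0.0286 in a two-sided exact permutation test, the smallest that 4 against 4 libraries allow (0.0429 after adjustment over 12 tests). The activated 20 h ratio was higher in Ahr-/- than in Ahr+/+ BMMs with DMSO (mean 1.62 against 1.36), BaP (1.62 against 1.283) and I3C (1.61 against 1.32), each without overlap (exact permutation test, p = 0.0286, adjusted 0.0429). The libraries of the genotypes there come from different number series of identifiers, so that genotype and series cannot be told apart for this ratio. At 3 h the ratios of activated libraries overlapped between genotypes with all 3 agents (exact permutation test, p = 0.171 to 0.429), and in unactivated BMMs Ahr-/- libraries were lower at 3 h (0.841 against 0.944, p = 0.0286 in the exact test) and not separable at 20 h (0.834 against 0.894, p = 0.114).

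**Figure D4:**
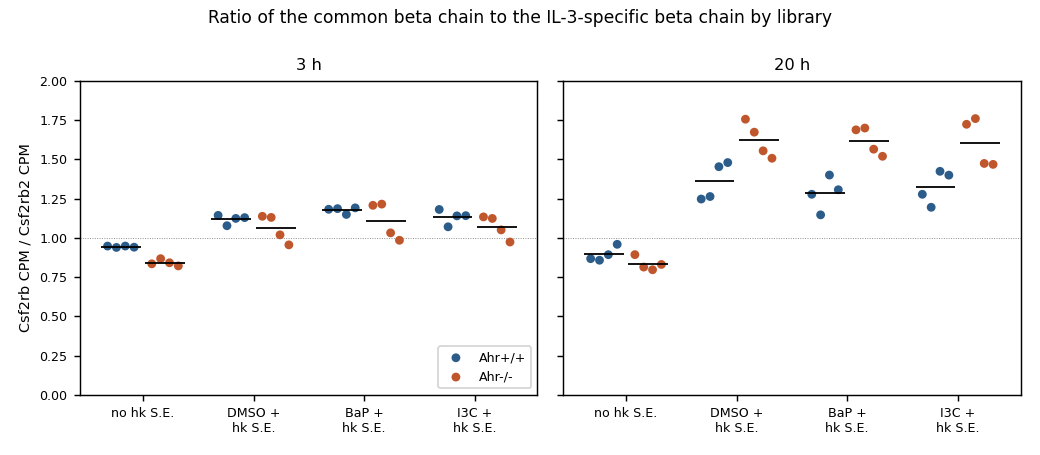
Ratio of Csf2rb CPM to Csf2rb2 CPM in each library (y axis from 0, dotted line at a ratio of 1 in CPM, which does not mark equal levels per length), at 3 h and 20 h, by treatment and genotype, with lines for group means. Unactivated libraries lie between 0.797 and 0.959, and activated Ahr-/- libraries at 20 h between 1.47 and 1.76.

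Between the genotypes, 2 of 32 comparisons in DMSO cultures were called, Csf2 and Csf3 in activated BMMs at 20 h, where 12.5% of all tested genes were called. None of the members was called in unactivated cultures at 3 h (1.21% of all genes) or 20 h (0.702%), nor in activated cultures at 3 h (2.83%), all with edgeR at an adjusted p of 0.01. In 4 of the 32 both groups had no counts above the floor and no test was made. At an unadjusted p of 0.05 further members stood below the line, among them Csf3r, higher in all Ahr-/- libraries of unactivated cultures at 3 h (74.7 against 51.8 CPM, log2 0.53, adjusted p = 0.126), and Csf1, lower in all Ahr-/- libraries of unactivated cultures at 20 h (5.46 against 9.14 CPM, log2 -0.72, adjusted p = 0.0269). This Csf1 difference was called with DESeq2 (-0.71, adjusted p = 0.00959).

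Csf2 at 20 h of activation was higher in every Ahr-/- library than in every Ahr+/+ library with each agent. With DMSO the means were 12.03 ± 7.52 and 1.37 ± 0.379 CPM (SD, n = 4), a log2 difference of 3.11 (SE 0.53, 8.62-fold, adjusted p = 2.87e-05). BaP libraries held 20.5, 17.6, 8.92 and 6.42 CPM in Ahr-/- and 0.881, 0.322, 0.657 and 0.939 CPM in Ahr+/+ BMMs, and I3C libraries 20.9, 16.9, 3.11 and 4.96 CPM against 1.26, 0.785, 0.603 and 1.63 CPM. These comparisons within BaP and I3C were added after the DMSO values were known, and gave differences of 4.20 (SE 0.57, adjusted p = 1.75e-07) and 3.40 (SE 0.56, adjusted p = 1.1e-05). Within the Ahr-/- groups, replicates 1 and 2 were above replicates 3 and 4 with all 3 agents, and the spread there was larger than the mean in Ahr+/+ BMMs.

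At 3 h Csf2 was higher in each Ahr-/- than in each Ahr+/+ library with DMSO as well, by 2.06 on the log2 scale, but this did not pass (SE 0.69, adjusted p = 0.065). With BaP the difference was 3.15 (SE 0.73, adjusted p = 0.00327) and with I3C 1.88 (SE 0.65, adjusted p = 0.0721). Ahr+/+ libraries with BaP held 1 to 12 counts of Csf2 at 3 h, so that the BaP difference rests on few reads. It was lost without Ahr+/+ BaP replicate 2 (2.91, adjusted p = 0.016) or 4 (2.78, 0.0172) or Ahr-/- BaP replicate 2 (2.67, 0.0314). The increase of the genotype difference from 3 h to 20 h with DMSO, 1.04 (SE 0.91), was not called (adjusted p = 0.521).

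Csf3 differed between genotypes at 20 h and not detectably at 3 h. At 20 h the means were 6.26 ± 3.21 CPM in Ahr-/- and 1.05 ± 0.116 CPM in Ahr+/+ BMMs (SD, n = 4), a log2 difference of 2.58 (SE 0.44, 5.96-fold, adjusted p = 1.85e-05). Differences with BaP and I3C were 2.71 (SE 0.43, adjusted p = 2.58e-06) and 2.17 (SE 0.43, adjusted p = 0.00015), again without overlap between the genotypes. At 3 h the difference was -0.38 (95% interval -1.30 to 0.53, adjusted p = 0.725) with DMSO. The change of the genotype difference between the times was 2.96 (SE 0.63, adjusted p = 0.00109). Csf3 was in this respect the only 1 of the 8 genes called, where 6.09% of all tested genes were. From 3 h to 20 h its activated level rose in Ahr-/- (1.71, adjusted p = 0.000496) and was lower in all 4 libraries in Ahr+/+ BMMs (-1.25, adjusted p = 0.0156).

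Of the 40 added comparisons 6 were called. For Ahr-/- against Ahr+/+ within BaP these were Csf2 at 3 h (4.88% of all tested genes called) and Csf2 and Csf3 at 20 h (23.3%), and within I3C none at 3 h (2.85%) and Csf2 and Csf3 at 20 h (15.6%). The 12 activated Ahr+/+ libraries at 20 h and the 12 activated Ahr-/- libraries at 20 h carry identifiers from different number series in the labels, without exception. The libraries that join these series within a group are unactivated and hold at most 1 count of Csf2 and Csf3, so for these genes genotype and identifier series cannot be told apart at 20 h. The same holds for their change from 3 h to 20 h in Ahr-/- BMMs.

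Markers of cells that could be a further source of these cytokines were set beside the 20 h difference. The 5 T cell markers summed to 0.368 to 1.30 CPM in activated Ahr-/- and 0.943 to 1.51 CPM in Ahr+/+ BMMs with DMSO at 20 h, and in Ahr-/- BMMs Cd3e and Cd3g were at 0 in all 4 libraries. Of fibroblast markers the sum was 7.69 to 9.88 CPM in Ahr-/- against 3.87 to 5.77 CPM in Ahr+/+ BMMs, of endothelial markers 3.07 to 17.9 against 31.3 to 59.4 CPM, and of neutrophil markers 20.6 to 29.5 against 21.0 to 35.5 CPM. Mast cell and basophil markers summed to 0.1266 to 0.2998 against 0.4086 to 1.342 CPM, almost only Kit. Dendritic cell markers summed to 0.07496 to 0.4416 against 0.8592 to 1.832 CPM, and B cell markers to 0.03166 to 0.3128 against 0 to 0.2695 CPM. The largest part of the fibroblast sum was Pdgfrb (mean 6.14 against 2.69 CPM). Col1a1 (0.79 against 0.24 CPM) and Col1a2 (0.84 against 0.26 CPM) were also higher in Ahr-/- BMMs, whereas Dcn was lower (0.855 against 1.73 CPM). The endothelial sum was almost only Kdr (9.58 against 47.7 CPM), with Cdh5 at 0.117 against 0.163 CPM and Tek at 0 in both. The part of any of these lists in the difference of Csf2 and Csf3 was not tested. In bulk RNA, fewer producing cells and less RNA per cell cannot be told apart.

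**Figure D5:**
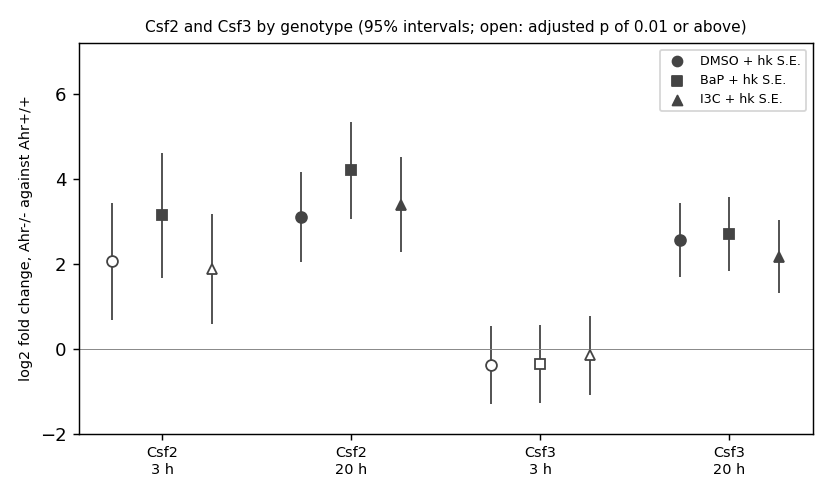
Log2 difference of Csf2 and Csf3 between Ahr-/- and Ahr+/+ BMMs after activation, by time and agent (DMSO, BaP, I3C), with 95% intervals; open symbols have an adjusted p of 0.01 or above. For Csf3 the values lie between -0.38 and -0.15 at 3 h and between 2.17 and 2.71 at 20 h, and for Csf2 between 1.88 and 4.20 at both times.

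No member was called in any of the 80 comparisons of the agents, which include BaP or I3C against DMSO in each genotype and BaP against I3C in Ahr+/+ BMMs. DESeq2 and limma called none either, and 3 of 80 were below an unadjusted edgeR p of 0.05, Csf2rb with BaP at 3 h (log2 0.20, adjusted p = 1) and Csf2rb2 with BaP and with I3C at 20 h, all in Ahr+/+ BMMs. Few genes were called in these comparisons at all by the edgeR fit used here. BaP in Ahr+/+ BMMs called 0.0482% of genes at 3 h and 0.234% at 20 h, I3C 0.131% and 0.509%, and BaP against I3C 0.11% and 0.282%. In Ahr-/- BMMs BaP called 0.0275% and 0.0138% and I3C 0.0206% and 0.206%. The paper, using DESeq2 with the same threshold of 0.01, lists more genes dependent on the receptor for either ligand at either time. Its list is longest for BaP after 20 h of activation, where the present fit called 34 genes in Ahr+/+ BMMs. The source of this gap was not tested, so the low shares describe the present fit only.

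Below the threshold, Csf2rb2 at 20 h came nearest. Ahr+/+ libraries held 497, 458, 442 and 433 CPM with BaP and 505, 476, 420 and 444 CPM with I3C, against 427, 407, 385 and 347 CPM with DMSO. All BaP libraries and 3 of 4 I3C libraries were above the DMSO range, with log2 differences of 0.23 (SE 0.08, unadjusted p = 0.00456, adjusted p = 0.18) and 0.24 (SE 0.08, unadjusted p = 0.00302, adjusted p = 0.191) in edgeR. With the replicate number as a block within genotype and time both were called (0.23, adjusted p = 0.00564, and 0.24, adjusted p = 0.00844), and each library was above the DMSO library of its number. Between BaP and I3C the difference for Csf2rb2 at 20 h was -0.01 (95% interval -0.16 to 0.14). BaP and I3C at 1 and 10 µM were not matched in dose, and for Csf2 their difference had the wide interval of -1.84 to 0.68. With BaP, Csf2 in Ahr+/+ BMMs at 20 h was below DMSO in all 4 libraries (0.700 against 1.37 CPM, log2 -0.95, 95% interval -2.15 to 0.26, adjusted p = 0.632).

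Whether the responses to the agents differed between genotypes was asked in 4 comparisons of all 8 genes, of which none was called (BaP 0.0138% of all genes at 3 h and 0% at 20 h, I3C 0% and 0%). In the 3 comparisons without a called gene, edgeR's unadjusted p was below 0.05 for 679 genes (BaP, 20 h), 241 genes (I3C, 3 h) and 287 genes (I3C, 20 h). A difference between genotypes in the response to hk S.E. was not called for any of the 6 members that could be tested either (0.0138% of all genes at 3 h, 4.41% at 20 h). Between 20 h and 3 h, the response differed for 2 members in Ahr+/+ (Csf1 and Csf3r, 47.8% of all genes) and for 3 in Ahr-/- BMMs (Csf1, Csf2rb and Csf3r, 44.7%). For Csf2 and Csf3 these differences against groups at the floor were left without a value.

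From 3 h to 20 h, 12 of 32 comparisons were called. Unactivated Ahr+/+ BMMs had lower Csf1 (-1.19, adjusted p = 3.75e-06) and higher Csf1r (0.35, adjusted p = 0.00589), where 6.07% of all genes were called. Unactivated Ahr-/- BMMs had lower Csf1 (-1.57, adjusted p = 1.39e-08) and Csf2rb2 (-0.33, adjusted p = 0.00161), where 6.98% were. Activated Ahr+/+ BMMs had lower Csf1 (-2.44, adjusted p = 7.19e-18) and higher Csf3r (1.35, adjusted p = 2.52e-09), where 59.5% were. Activated Ahr-/- BMMs had 6 calls, where 56% of all genes were called. These were higher Csf2 (2.25, adjusted p = 0.000222), Csf3, Csf2rb (0.33, adjusted p = 0.00294) and Csf3r (1.06, adjusted p = 5.63e-07) and lower Csf1 (-2.77, adjusted p = 9.88e-20) and Csf2rb2 (-0.28, adjusted p = 0.00117).

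Some of the smaller time differences depended on single libraries or on the fit. In activated Ahr+/+ BMMs Csf2rb2 was lower by -0.19 (adjusted p = 0.0249) and was called with DESeq2 (-0.26, adjusted p = 0.000938), limma (0.00176), DESeq2's size factors in edgeR (0.00215) and without any 1 DMSO replicate at 3 h (0.00108 to 0.00469). Csf3 there was called with DESeq2 (-1.32, adjusted p = 0.00656) and without DMSO replicate 3 at 3 h (-1.44, adjusted p = 0.00864). The Csf1r increase in unactivated Ahr+/+ BMMs was lost without any 1 of 5 libraries (replicates 1, 2 and 4 at 3 h, 2 and 4 at 20 h, adjusted p = 0.0121 to 0.0521). The Csf2rb increase in activated Ahr-/- BMMs, whose groups overlapped, was 0.23 with an adjusted p = 0.0351 under DESeq2's size factors and 0.07 (adjusted p = 0.49) for the summed beta chains, and was lost without replicate 3 or 4 at 3 h or 1 or 2 at 20 h (0.0196 to 0.0229). For Csf2rb2 the decrease was lost in unactivated Ahr-/- BMMs without replicate 2 or 4 at 3 h (adjusted p = 0.0109 and 0.0118) and in activated ones without replicate 3 at 20 h (0.0186).

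Of the other ligands and alpha chains of this cytokine family, Il3, Il5 and Il5ra were below the filter. Il34, the second ligand of the M-CSF receptor, rose at 3 h from 0.0237 to 0.980 CPM in Ahr+/+ and from 0.0226 to 2.07 CPM in Ahr-/- BMMs. It had 0 counts in activated DMSO cultures at 20 h. At these levels it passed the filter on low counts through activated 3 h libraries, so no p is given for its rise. Il3ra, the IL-3 alpha chain, increased by 0.60 at 20 h in Ahr+/+ BMMs (adjusted p = 0.000804), while the 20 h value of 0.19 in Ahr-/- BMMs and the 3 h values of 0.06 and 0.23 were not called (adjusted p = 0.32, 0.771 and 0.202).

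Among 18 kinases, adaptors and STATs that carry the signal of these receptors, 11 rose and 1 fell at 3 h in each genotype, and at 20 h 10 rose and 4 fell in Ahr+/+ and 11 rose and 2 fell in Ahr-/- BMMs. For this list and the 3 that follow, the share of all genes called in either direction was 56.6% and 57.3% at 3 h and 58.6% and 54.3% at 20 h in Ahr+/+ and Ahr-/- BMMs. Their median log2 fold change was 0.66, 0.38, 0.67 and 0.26 for Ahr+/+ at 3 h and 20 h and Ahr-/- at 3 h and 20 h, beside the medians of all genes given above. Jak2, the kinase bound by the common beta chain, rose by 4.46 and 4.54 in Ahr+/+ and by 4.37 and 4.40 in Ahr-/- BMMs (largest adjusted p = 6.5e-33). Stat5a, which GM-CSF activates, rose at 3 h (3.21 and 3.42) and stood at 0.02 and -0.11 at 20 h (adjusted p = 0.859 and 0.395). Between genotypes none of the 18 was called at 3 h, where 2.83% of all genes were in activated BMMs, and 2 were lower in activated Ahr-/- BMMs at 20 h, near the 12.5% of all genes called there, Stat3 (-0.31, adjusted p = 0.00429) and Jak1 (-0.38, adjusted p = 0.000243).

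Of 13 negative regulators, 5 rose and 3 fell at 3 h in each genotype, and 8 rose and 3 fell in Ahr+/+ and 7 rose and 3 fell in Ahr-/- BMMs at 20 h. Called members were near the share of all genes at 3 h, and the medians in the same order as before were 0.05, 0.61, 0.02 and 0.46. Socs1, an inhibitor of Janus kinases, rose by 8.47 and 5.72 in Ahr+/+ and by 8.59 and 6.60 in Ahr-/- BMMs. Cish, a target gene of STAT5 that is induced by GM-CSF, rose by 6.12 and 6.02 at 3 h and by 1.01 (adjusted p = 0.00646) and 3.44 (adjusted p = 6.76e-14) at 20 h. In activated BMMs at 20 h Cish was 5.07-fold higher in Ahr-/- (12.1 CPM) than in Ahr+/+ BMMs (2.40 CPM, log2 2.34, SE 0.30, adjusted p = 2.87e-08). There, 2 other regulators were lower, Cblb (-0.54, adjusted p = 0.00633) and Dok1 (-0.65, adjusted p = 1.45e-05). At 3 h Sh2b3, an adaptor that dampens cytokine signals, was higher in activated Ahr-/- BMMs (0.44, adjusted p = 0.00327), and it was called lower with activation in all 4 comparisons.

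Of 10 factors that bind or cut AU-rich cytokine mRNAs, 5 rose and 4 fell at 3 h and 3 rose and 3 fell at 20 h in each genotype, the latter near the share of all genes. Their medians were 0.69, -0.04, 0.68 and -0.05. Zfp36, which encodes tristetraprolin and promotes the decay of Csf2 mRNA, stood at 249 CPM without and 1605 CPM with hk S.E. at 3 h in Ahr+/+ BMMs, and at 236 and 146 CPM at 20 h. Its paralogs Zfp36l1 and Zfp36l2 fell in all 4 comparisons, with log2 fold changes of -3.72 to -3.28 and of -4.18 to -2.14, and the RNase gene Zc3h12a rose in all of them, by 2.14 to 3.23. Between genotypes, Zfp36 was lower in activated Ahr-/- (77.5 CPM) than in Ahr+/+ BMMs (146 CPM) at 20 h (-0.92, SE 0.16, adjusted p = 2.17e-05). In that comparison Hnrnpd, which encodes AUF1, was higher (0.34, adjusted p = 0.0021).

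Among 8 transcription factors known to act on the receptor genes, 4 rose and 2 fell in Ahr+/+ and 5 rose and 2 fell in Ahr-/- BMMs at 3 h, and 4 rose and 1 fell and 3 rose and 3 fell at 20 h. Their medians were 1.058, 0.192, 1.279 and -0.035. Cebpa, which drives the Csf3r gene in myeloid precursors, fell by 4.35 and 2.01 in Ahr+/+ and by 3.88 and 2.49 in Ahr-/- BMMs. Ets2 was lower in unactivated Ahr-/- than in Ahr+/+ BMMs at 3 h (-0.52, adjusted p = 0.00433) and 20 h (-0.61, adjusted p = 0.000862). Gfi1, a repressor needed in granulocyte development, was higher in activated Ahr-/- BMMs at 3 h (1.69, adjusted p = 0.000141) and 20 h (1.29, adjusted p = 0.00067), and Irf8 was lower at 3 h (-0.73, adjusted p = 0.00121). The 20 h genotype values of these lists share the identifier series with those of Csf2 and Csf3.

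The genes whose group means ran most closely with those of a member were named by Pearson's r over the 16 groups, as a description across groups that share libraries and activation. For Csf2 these were Ptpre (0.985), Mmp9 (0.978) and Trim43b (0.971), for Csf3 Gng12 (0.988), Abcc4 (0.985) and Krt222 (0.981). Csf1 ran with Naa25, Abtb2 and Elp5 (0.995 each) and Csf3r with Lst1 (0.987), Spic (0.984) and Cd2bp2 (0.982). Values for the other members were lower for Csf1r (R3hdm4, 0.952) and Csf2rb2 (Wipf2, 0.962), and 0.982 for Csf2ra with Adrm1 and 0.987 for Csf2rb with Ncstn. The median r of all tested genes with each member lay between -0.155 and 0.0853.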

How the data were processed

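Raw counts per gene, deposited by the authors for 64 libraries (stranded poly(A) libraries, paired reads), were used. Per the labels and the study's methods, reads were demultiplexed with bcl2fastq 2.19.0.316, aligned to mm10 with HISAT2 2.1.0 and counted on their strand with htseq-count 0.9.1, which leaves out reads that align to several places (12.4 to 15.8% per library). This bears on Csf2rb and Csf2rb2. Log2 values after variance stabilisation, also deposited by the authors, served as an alternative. Entries naming no gene (19.2 to 25.1%) were left out. Genes were filtered with filterByExpr (minimum count 10), scaled by TMM and fitted as 16 group means over all libraries with edgeR 4.0.16 (R 4.3.3, quasi-likelihood F-test, 48 residual degrees of freedom, Benjamini-Hochberg adjustment, threshold 0.01, for all adjusted p-values of genes), a procedure tested on simulated data. SE is the log2 difference divided by the square root of F. CPM used TMM-scaled totals, RPKM the length of the union of annotated exons. Ratios of both beta chains were compared by exact permutation tests. Alternatives used DESeq2 1.42.0, limma 3.58.1, other scaling, filters, blocks and single libraries left out. Named genes were all 8 members, the genes of each list with the largest activation change or called between genotypes, and the 3 most alike genes. Il3ra was named after its values were seen. The members and lists were chosen with earlier results of these data known. Positions are those of GENCODE M21 on GRCm38. Csf2 overlaps Gm12223 and Csf1r overlaps Hmgxb3 on the opposite strand. Labels do not tie replicate numbers to mice. Deviations of same-numbered libraries from their group means correlated above 0.1 in every pair between the Ahr-/- groups at 20 h (0.131 to 0.645) and, at 20 h in Ahr+/+ BMMs, between DMSO and I3C (0.202 to 0.255), but not in every pair between DMSO and BaP (0.0988 to 0.23) or between activated and unactivated Ahr-/- cultures at 3 h (from -0.248).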

Additional observations from a re-analysis of the deposited data

Results flagged for a closer look

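In groups of 4 libraries, 4 of 120 combinations of gene and group held a library far from the others by Dixon's criterion, which chance alone meets in about 1 of 20. Csf1 in activated Ahr-/- BMMs with DMSO at 3 h was 471 CPM in replicate 2 and 508 to 512 CPM in the others. Csf2ra in activated Ahr+/+ BMMs with I3C at 20 h was 138 CPM in replicate 3 against 173 to 176 CPM. Csf2rb in unactivated Ahr+/+ BMMs at 20 h was 313 CPM in replicate 2 against 283 to 285 CPM. Csf2rb2 in activated Ahr-/- BMMs with I3C at 20 h was 349 CPM in replicate 3 against 405 to 416 CPM.

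The response to hk S.E. differed between 20 h and 3 h, by the interaction term in edgeR, for Csf1 (-1.25 in Ahr+/+ and -1.20 in Ahr-/- BMMs on the log2 scale), Csf3r (0.95 and 0.88) and, in Ahr-/- BMMs, Csf2rb (0.68). The genotype difference of Csf3 in activated BMMs differed between the times by 2.96.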

How the results depend on the processing

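The 28 calls for activation, 2 for genotype, 0 for the agents, 12 for time, 5 for interactions and 6 for the added comparisons became 26 to 28, 2 to 2, 0 to 0, 11 to 15, 4 to 6 and 5 to 6 when each library was left out in turn. No direction of a call was reversed under any alternative run. With the identifier series as a covariate, 0 genotype, 7 time and 1 added call were made. Csf2 and Csf3 could not be fitted there in 10 comparisons, because the libraries that join the series hold almost no counts of them. Fitted and lost were the time calls of Csf1r in unactivated Ahr+/+ (adjusted p = 0.0668) and of Csf2rb2 in unactivated (0.054) and activated (0.0621) Ahr-/- BMMs, and the activation calls of Csf2 (0.0352, 3 h) and Csf2ra (0.0221, 20 h) in Ahr+/+ BMMs. With the replicate number as a block within genotype 6 genotype and 11 added calls were made, and with a block within genotype and time 8 genotype, 2 agent, 9 interaction and 12 added calls. The block takes the spread between numbers out of the error of a genotype comparison. Same-numbered libraries had the highest r in 44 of 48 pairs in Ahr+/+ and 37 of 48 in Ahr-/- BMMs. Of 264 single values, 3 lost and 6 gained a call with DESeq2, 3 and 2 with limma on the deposited log2 values, and 3 and 1 with DESeq2's size factors in edgeR. Fitting the compared groups alone lost 11 and gained 5 of 261, among the losses Csf3 between genotypes with I3C at 20 h (adjusted p = 0.0113), Csf2 with BaP at 3 h (0.0277), Csf2rb2 with activation in Ahr-/- BMMs at 20 h (0.0164) and Csf1r at 3 h (0.0879).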
